A study of Mus musculus with 16 samples.

Results

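The comparison set 3 m.11944 60% tumors against the 3 wild-type tumors of the same batch, 6 of the 16 tumors in the series. The tumors were taken by their labels and by the batch given for each tumor in the table of cells, and no measured value was used to choose them. They held 62174 of the 163343 cells, with 35595 cells from the m.11944 60% tumors and 26579 from the wild-type tumors. Each sample was labelled as tissue of a subcutaneous tumor and came from B78 cells, an amelanotic mouse melanoma line that lacks Cdkn2a, in male C57/BL6 mice of 8 to 11 weeks. The cells of the m.11944 60% group carried m.11944G>A in mt-Nd5 on about 60% of their mitochondrial genomes, and the wild-type cells carried no such edit. Live cells of each tumor were profiled by droplet single-cell RNA sequencing. The loss of Cdkn2a was shared by all 6 tumors, host cells carried no edit, and the edited tumors all came from a single edited line, so the edit and the history of that line cannot be told apart. The other tumors of the series were 3 m.12436 60% and 3 m.12436 80% tumors, with a second truncating edit of mt-Nd5 at about 60% and 80% heteroplasmy, and 4 wild-type tumors of the other batches. The m.12436 60% tumors are used below for comparison, and all 16 tumors enter 1 of the fits.

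mt-Nd5 encodes a core membrane subunit of complex I, the first enzyme of the respiratory chain, which oxidizes NADH and pumps protons across the inner mitochondrial membrane. A cell holds many copies of the mitochondrial genome, and the share of copies with a mutation is its heteroplasmy. Tumors of this kind hold cancer cells together with myeloid cells, which are monocytes, the macrophages that arise from them and neutrophils, and with fibroblasts, endothelial cells and lymphocytes.

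The edited base lies in the only exon of mt-Nd5, which spans chrM:11742-13565 on the plus strand of GRCm39. It is base 2 of codon 68 of 607. In the vertebrate mitochondrial code the reference codon encodes tryptophan and the edited codon is a stop (W68*), so that 67 residues, 11.0% of the protein, precede the stop. The reference sequence of chrM:11919-11969 and the same stretch with the edit are shown because they define the group, with the codon in capitals.
wild type: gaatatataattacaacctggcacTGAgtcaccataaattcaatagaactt
m.11944G>A: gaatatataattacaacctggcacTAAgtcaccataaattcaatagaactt

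The table held no gene expression, so the heteroplasmy could not be read from it, and the 15 classes could not be checked against marker genes. It did hold a ploidy call for each cell, the authors' estimate of whether a cell carries copy number changes. Among cells labelled as cancer cells, 92.7% to 99.4% were called aneuploid in the 6 tumors, against at most 0.70% of monocytes or macrophages in any tumor. Among cells labelled Fibroblast, 0.93% to 52.3% were called aneuploid, so that label went against the ploidy call in a part of its cells.

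The libraries held 6740 to 13448 cells and 54652952 to 131121046 UMIs (unique molecular identifiers, each standing for a captured RNA molecule). The median cell held 6859, 4167.5 and 7527.5 UMIs in the m.11944 60% tumors 1, 2 and 3, and 7128, 4284.5 and 3293 in the wild-type tumors. These ranges overlapped. Of 61724 distinct cell barcodes, 448 (0.726%) were found in more than 1 of the 6 libraries. A counting interval around the share of a class in a tumor reached at most 1.16 percentage points to a side (Clopper-Pearson, 95%, counting error only).

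m.11944 60% tumor 1 stood apart from the other 5. Fibroblast-labelled cells made up 15.1% of it, against 2.23% to 5.28% of the others, and these cells had a median of 966 UMIs and an aneuploid share of 0.93%. Its cancer cells had a median of 23118.5 UMIs, against 6347.5 to 15810 in the other tumors, and cancer cells were 26.3% of its cells, the lowest share of the 6. The value without it is given below where its direction turned or its size changed by over 1.5 times. This covers the shares of classes with at least 20 cells in each tumor. It also covers the cluster shares and the per-cell values of classes that did not overlap. Other values may rest on tumor 1 without a mention. Groups that do not overlap stay so when a tumor is left out, so this step could not test the separations described below.

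The first question was whether the tumors differed in the cells they contained. Of the 15 classes, 0 (0%) had shares that did not overlap between the groups. Neutrophils, short-lived phagocytes recruited from the blood, had the lowest ratio of means among the 10 classes with at least 20 cells in each tumor. Neutrophils made up 2.43%, 1.36% and 2.57% of the m.11944 60% tumors and 8.48%, 6.71% and 1.58% of the wild-type tumors. Wild-type tumors 1 and 2 were high, and wild-type tumor 3 lay inside the range of the m.11944 60% tumors. The means were 2.12% ± 0.66 and 5.59% ± 3.59 (SD, n = 3 each; exact two-sided permutation p = 0.30). The smallest p that 3 against 3 tumors allow in this test is 0.10.

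Cancer cells were 26.3%, 45.4% and 56.7% of the m.11944 60% tumors and 50.3%, 35.5% and 49.7% of the wild-type tumors, with means of 42.8% ± 15.4 and 45.2% ± 8.4 (SD). Monocytes, blood-derived precursors of macrophages and dendritic cells, made up 29.4%, 26.1% and 15.2% against 16.8%, 26.3% and 23.3%. Macrophages, tissue phagocytes, made up 12.6%, 18.9% and 18.4% against 15.8%, 20.8% and 15.6%. In these 3 classes, which held most of the cells, the groups overlapped throughout. The differences of means, -2.39, 1.45 and -0.79 percentage points for cancer cells, monocytes and macrophages, were 5.87, -1.47 and 1.24 without m.11944 60% tumor 1.

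Fibroblast-labelled cells were 15.1%, 2.23% and 2.34% of the m.11944 60% tumors and 3.70%, 5.28% and 3.44% of the wild-type tumors. The mean was higher in the m.11944 60% group only through tumor 1, and without it the difference was -1.85 percentage points and the groups did not overlap. Endothelial cells, the lining of blood vessels, were 0.559%, 0.312% and 0.356% against 0.547%, 0.341% and 0.493%. Their difference of means was -0.051 percentage points, or -0.13 without m.11944 60% tumor 1, with overlap.

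In DC, NK cells and CD4 T cells, m.11944 60% tumor 1 was the highest of the 6 and tumors 2 and 3 were near the wild type. The differences of means in these classes, 0.40, 0.58 and 0.59 percentage points, were -0.080, -0.11 and -0.033 without it. DC, the dendritic cells that prime T cells, made up 3.14%, 1.75% and 1.66% against 1.501%, 1.85% and 2.01%. NK cells, which kill without prior antigen exposure, made up 3.09%, 1.25% and 0.799% against 0.840%, 1.32% and 1.24%. CD4 T cells, the helper lineage, made up 2.52%, 0.751% and 0.540% against 0.750%, 0.549% and 0.735%. In these classes tumors 2 and 3 lay inside the range of the wild type or within 0.05 percentage points of it.

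CD8 T cells, the cytotoxic lineage, made up 1.55%, 0.915% and 0.583% of the m.11944 60% tumors against 0.623%, 0.386% and 0.668% of the wild-type tumors, with tumors 1 and 2 above every wild-type tumor and a difference of means of 0.46 percentage points, or 0.19 without tumor 1. The unspecified T cells class, which had fewer than 20 cells in 1 tumor, made up 1.94%, 0.729% and 0.583% against 0.280%, 0.193% and 0.743%. Wild-type tumor 3 lay above m.11944 60% tumors 2 and 3, and the other two wild-type tumors lay below all 3.

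**Figure D1:**
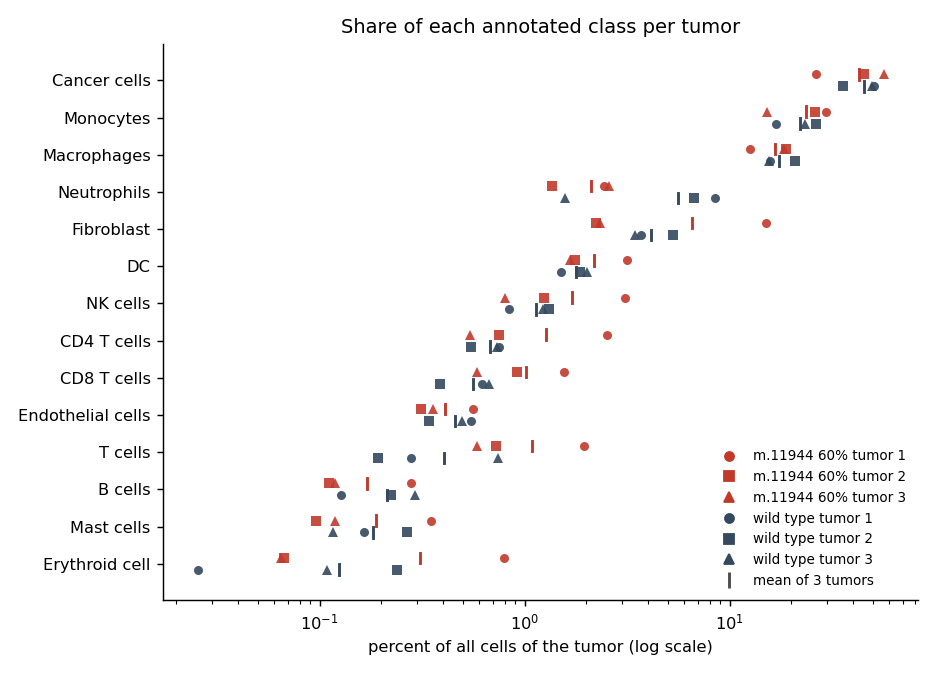
Share of the classes found in every tumor, as a percentage of all cells of the tumor on a log axis, with m.11944 60% tumors in red, wild-type tumors in blue and a bar at the mean of 3. The groups overlap in every class, m.11944 60% tumor 1 lies far to the right for fibroblasts (15.1%), and neutrophils are above 6% in wild-type tumors 1 and 2 alone.

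edgeR's quasi-likelihood test of the cell counts, with the total of each tumor as its size, called 0 of 15 classes at an adjusted p under 0.05, and 0 at an unadjusted p under 0.05, and DESeq2 called 0, with 1 at an unadjusted p under 0.05. Neutrophils came nearest, with a log2 fold of -1.40 ± 0.66 (SE; edgeR adjusted p = 0.52). Without m.11944 60% tumor 1 the log2 fold of neutrophils was -1.51 and the edgeR adjusted p was 0.106, the lowest over the alternatives, which ranged up to 0.985. Against all 7 wild-type tumors the log2 fold was -2.02 (edgeR adjusted p = 0.107). In the other batch the ratio of mean neutrophil shares, m.12436 60% over its wild type, was 0.456, with overlap. When only cells with at least 1000 detected genes were counted, the neutrophil log2 fold turned to 0.86. Neutrophils had a median of 1244 to 2379 UMIs in the 6 tumors, so this floor fell on them, and the part of RNA content in the neutrophil result was not tested.

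The next question was which clusters of cells changed. The authors' clustering divided the cells of all 16 tumors into 39 clusters by their expression, whose defining genes were not given in the table. The groups did not overlap in 7 of the 39 clusters (17.9%). With no difference, full separation of 3 against 3 tumors is found in a share of about 0.10 of comparisons. The shares of a tumor add up to the whole, so the clusters are not independent. All 3 m.11944 60% tumors were higher in 4 (10.3%) and lower in 3 (7.69%). Of the 7, 4 were cancer cell clusters, 2 were monocyte clusters and 1 was a macrophage cluster.

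Cluster 28, a small cluster of cancer cells, was the clearest of these. It made up 0.660%, 0.692% and 0.842% of the cells of the m.11944 60% tumors and 0.191%, 0.312% and 0.250% of the wild-type tumors. Every m.11944 60% tumor lay above every wild-type tumor, with a ratio of means of 2.91. The 7 wild-type tumors of all batches spanned 0.126% to 0.312%, so that the m.11944 60% tumors lay above all of them, which held for 1 of the 39 clusters (2.56%). Its 322 cells were 86.6% in G1, the phase before DNA synthesis, and 97.5% were called aneuploid.

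Cluster 2 held cancer cells that were 93.4% in G1 and had a low median dissociation percentage of 3.15%, the share of UMIs from genes that respond to tissue dissociation. It made up 7.98%, 10.0% and 16.95% of the m.11944 60% tumors and 6.82%, 4.38% and 4.58% of the wild-type tumors. The groups were separated by 1.16 percentage points between m.11944 60% tumor 1 and wild-type tumor 1. The ratio of means was 2.22.

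Clusters 8 and 9 were lower in the m.11944 60% tumors. Cluster 8, cancer cells of which 87.1% were in G1, made up 2.55%, 3.64% and 3.79% against 9.29%, 5.10% and 12.6%, with a ratio of means of 0.369. Cluster 9, cancer cells with a median dissociation percentage of 5.08% and 24.3% of cells in S phase, made up 0.784%, 3.13% and 4.82% against 9.73%, 5.85% and 7.94%, with a ratio of 0.371. In cluster 9 m.11944 60% tumor 1 was the lowest of the 6, and tumor 3 came within 1.03 percentage points of wild-type tumor 2.

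Of the monocyte clusters, cluster 0 was higher and cluster 5 lower in all 3 m.11944 60% tumors. Cluster 0 made up 16.7%, 7.93% and 4.86% of the m.11944 60% tumors and 4.61%, 2.83% and 4.43% of the wild-type tumors. Cluster 5 made up 1.92%, 4.46% and 3.51% against 6.20%, 6.602% and 8.36%. The ratio of means was 2.49 for cluster 0, or 1.62 without m.11944 60% tumor 1, which took the difference from 5.89 to 2.44 percentage points, and 0.468 for cluster 5, or 0.565 without that tumor. Neither cluster passed edgeR's test (adjusted p = 0.278 for both). Cluster 0 held cells with a median of 3793 UMIs and a dissociation percentage of 3.46%, and cluster 5 cells with 1893 UMIs and 4.68%, and the part of depth in this pair was not tested.

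Macrophage cluster 30 made up 0.838%, 0.439% and 0.691% of the m.11944 60% tumors and 0.114%, 0.415% and 0.401% of the wild-type tumors. The gap between the nearest tumors of the groups was small, and in the other batches a wild-type tumor reached 1.22%.

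**Figure D2:**
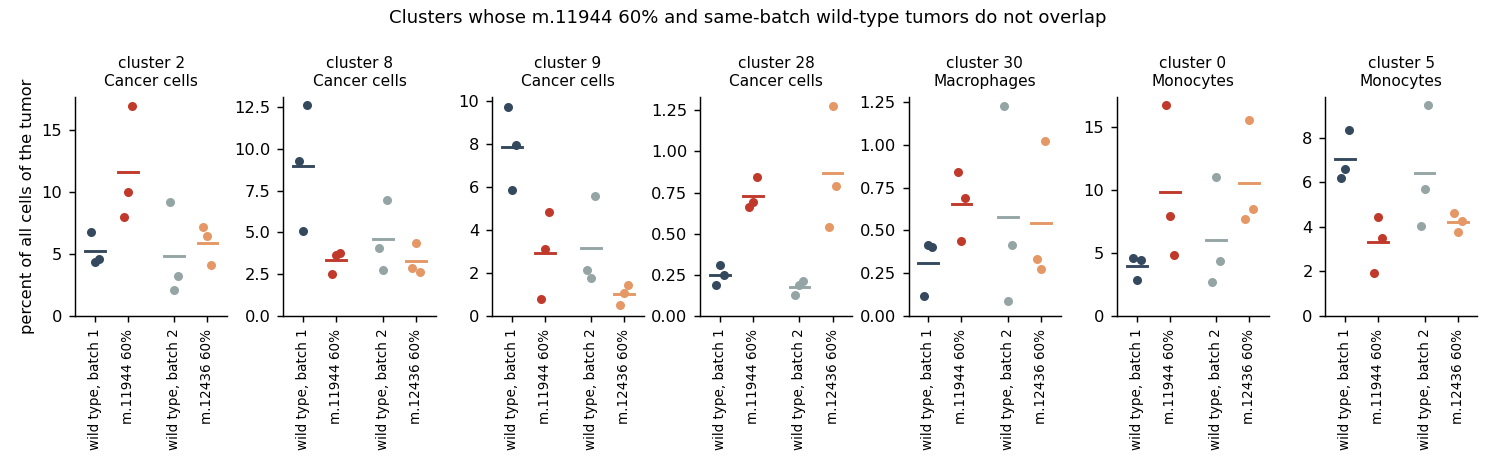
Percentage of all cells of a tumor in each of the 7 clusters whose m.11944 60% tumors (red) and same-batch wild-type tumors (dark blue) do not overlap, with the m.12436 60% tumors (orange) and the wild-type tumors of their batch (grey) beside them, 1 point per tumor and a bar at the mean. Cluster 28 is higher and cluster 9 lower in both mutants without overlap, with ratios of 2.91 and 0.371 for m.11944 60%.

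edgeR called 0 of the 39 clusters at an adjusted p under 0.05, with 5 (12.8%) at an unadjusted p under 0.05, namely clusters 0, 8, 9 and 28 and macrophage cluster 36. DESeq2 also called 0, with 5 at an unadjusted p under 0.05. Cluster 28 had a log2 fold of 1.54 ± 0.54 (SE) and cluster 8 of -1.44 ± 0.56, both with an edgeR adjusted p of 0.278. With all 16 tumors in 1 fit, and batch and group as terms, 0 of 39 were called by edgeR and 8 had an unadjusted p under 0.05, and the adjusted p of cluster 28 was 0.0851. Against all 7 wild-type tumors edgeR called cluster 28 alone, with a log2 fold of 1.84 and an adjusted p of 0.0113. Over the alternatives the edgeR adjusted p of cluster 28 ran from 0.0113 to 0.635 and its log2 fold from 1.38 to 1.84.

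Shares of all cells move when any other class grows, so clusters were also counted within their own class. Of the 31 clusters in classes with more than 1 cluster, 11 (35.5%) did not overlap between the groups, against about 0.10 with no difference. Shares within a class add up to the whole class, so a rise in 1 cluster lowers others. The 11 are therefore not separate results. They were cancer cell clusters 2, 8, 9, 10 and 28, monocyte clusters 0 and 5, macrophage clusters 4 and 18 and DC clusters 19 and 32.

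Among cancer cells, cluster 2 made up 30.4%, 22.1% and 29.9% in the m.11944 60% tumors and 13.6%, 12.3% and 9.20% in the wild-type tumors. Cluster 8 made up 9.69%, 8.01% and 6.69% against 18.5%, 14.4% and 25.4%. Cluster 9 made up 2.99%, 6.89% and 8.498% against 19.3%, 16.5% and 15.97%. These 3 clusters separated the groups by gaps of at least 4.68 percentage points, and m.11944 60% tumor 1, which stood apart in its share of cancer cells, lay with tumors 2 and 3 on clusters 2 and 8.

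Cluster 28 made up 2.51%, 1.52% and 1.49% of the cancer cells of the m.11944 60% tumors and 0.379%, 0.877% and 0.504% of those of the wild-type tumors. Cluster 10, cancer cells of which 78.8% were in G1, made up 13.5%, 16.3% and 11.1% against 9.13%, 10.4% and 7.52%. Of the cancer cell clusters, cluster 28 lay above and cluster 8 below all 7 wild-type tumors of the series. The cancer cell clusters with most cells in S or G2M phase, 11, 14, 16 and 27, overlapped between the groups.

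Within the monocytes, cluster 0 made up 57.0%, 30.4% and 32.0% against 27.4%, 10.8% and 19.0%, and cluster 5 made up 6.55%, 17.1% and 23.1% against 36.9%, 25.1% and 35.9%. Monocyte clusters 1 and 6 overlapped. Clusters 0 and 5 did not pass edgeR's test within the class (adjusted p = 0.258 for both). The difference for cluster 0 was 20.7 percentage points, or 12.1 without m.11944 60% tumor 1, whose monocytes had the highest median UMI count of the 6, 6427 against 1375 to 2854, and the part of depth was not tested.

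Within the macrophages, cluster 4 made up 45.8%, 41.0% and 45.1% against 29.1%, 39.0% and 23.7%. Cluster 18, macrophages of which 52.9% were in S phase and 47.0% in G2M phase, made up 12.97%, 13.3% and 11.9% against 11.7%, 10.0% and 10.4%. Within the DC, cluster 19 made up 60.2%, 66.9% and 57.1% against 74.6%, 72.8% and 68.0%, and cluster 32 made up 15.6%, 15.7% and 13.6% against 9.32%, 12.8% and 12.9%. In the macrophage and DC clusters the nearest tumors of the groups differed by less than 2 percentage points, which is small against the spread of most of them.

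**Figure D3:**
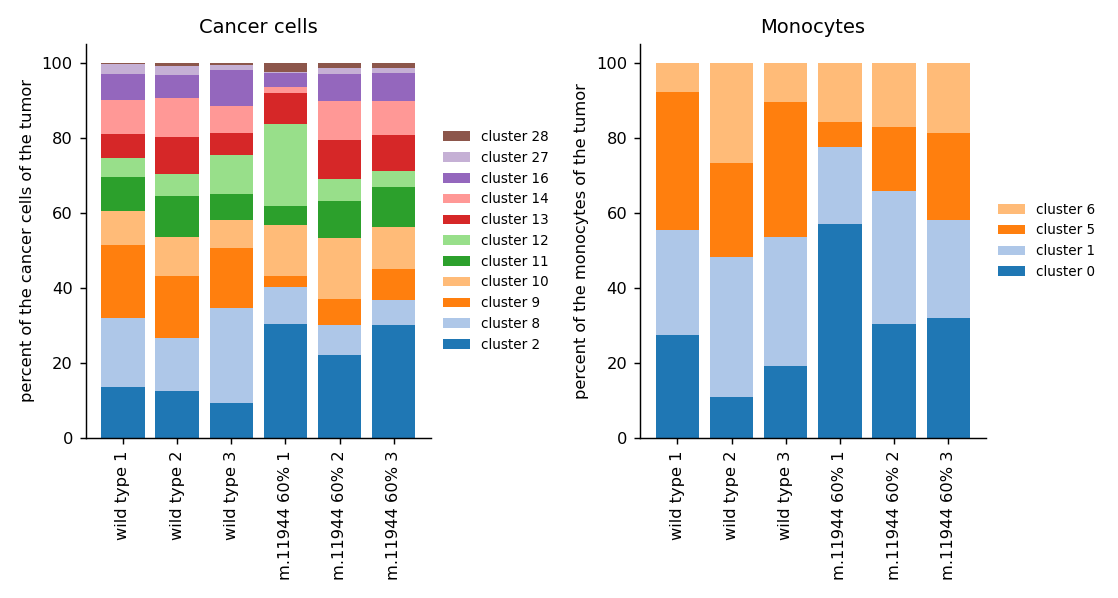
Stacked bars of the clusters of the cancer cells (left) and of the monocytes (right), as percentages of the class in each of the 6 tumors. Cluster 2 is 22.1% to 30.4% of the cancer cells in the m.11944 60% tumors and 9.20% to 13.6% in the wild-type tumors, and monocyte cluster 5 is 6.55% to 23.1% against 25.1% to 36.9%.

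edgeR with the class total as size called 0 of the 31 clusters at an adjusted p under 0.05, with 5 (16.1%) at an unadjusted p under 0.05, all of them cancer cell clusters. The log2 folds were 1.23 ± 0.25 (SE) for cluster 2, -1.26 ± 0.29 for cluster 8 and 1.67 ± 0.40 for cluster 28, each with an edgeR adjusted p of 0.0632. Cluster 9 had a log2 fold of -1.49 ± 0.41 (edgeR adjusted p = 0.0821) and cluster 10 of 0.60 ± 0.24 (edgeR adjusted p = 0.258). In the fit of all 16 tumors, those of m.12436 60%, m.12436 80% and 3 batches included, with batch and group as terms, 3 of 31 (9.68%) were called, cluster 2 (edgeR adjusted p = 0.0449), cluster 8 (0.0361) and cluster 28 (0.0423), with log2 folds of 1.23, -1.26 and 1.67. These 3 calls rested on the spread estimated from the other 10 tumors as well. Over the alternatives the adjusted p reached 0.191 for cluster 2, 0.224 for cluster 8 and 0.219 for cluster 28, and their log2 folds stayed on 1 side, from 1.09 to 1.37, from -1.43 to -1.01 and from 1.39 to 2.04.

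**Figure D4:**
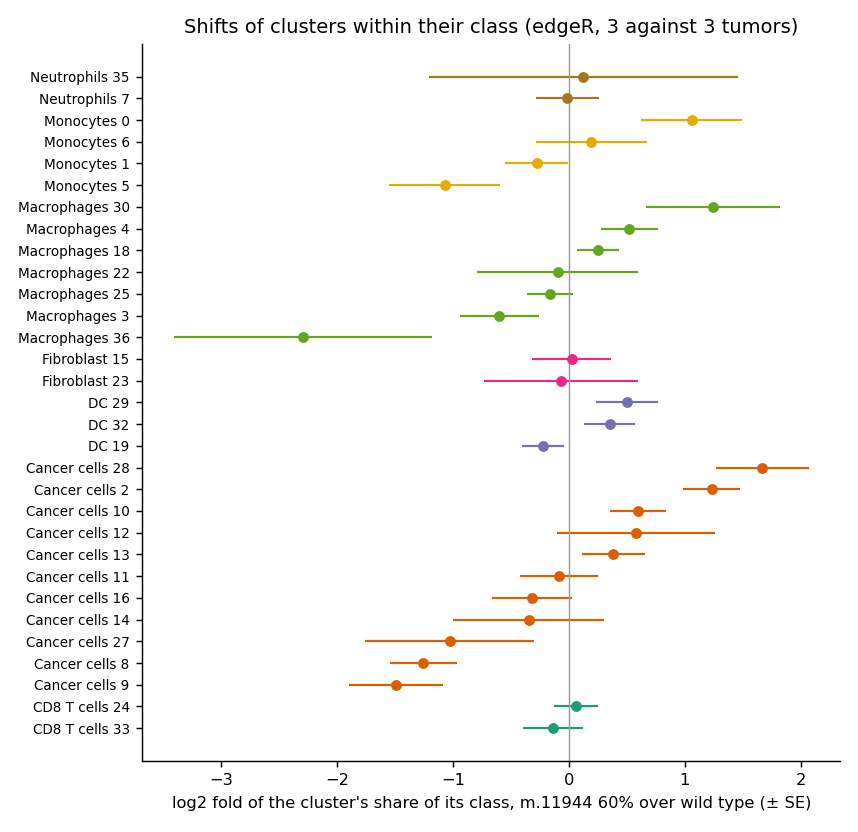
log2 fold of the share of each cluster within its class, m.11944 60% over same-batch wild type, from edgeR on 3 against 3 tumors, with bars of 1 SE and colors by class. Cancer cell clusters 2 and 28 lie to the right (1.23 and 1.67), clusters 8 and 9 to the left (-1.26 and -1.49), and the widest bar near the left edge is macrophage cluster 36.

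Macrophage cluster 36 had the largest fold but not a separation. It made up 0.194%, 0.112% and 0.032% of the m.11944 60% tumors and 0.649%, 0.074% and 1.05% of the wild-type tumors, with wild-type tumor 2 inside the range of the m.11944 60% tumors. Its log2 fold among all cells was -2.37 ± 0.86 (SE; edgeR adjusted p = 0.278). Without wild-type tumor 2 edgeR called it (adjusted p = 0.0489), so its call rested on which wild-type tumors were counted.

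The other truncating edit of mt-Nd5, m.12436G>A at 60% heteroplasmy, was measured in a second batch with its own 3 wild-type tumors. Against those, the ratio of means was 4.90 for cluster 28 and 0.319 for cluster 9, without overlap in either. The ratio was 1.23 for cluster 2, 0.720 for cluster 8, 1.74 for cluster 0, 0.658 for cluster 5 and 0.943 for cluster 30, with overlap in all 5. Within the monocytes cluster 5 did not overlap for m.12436 60% either, with means of 12.3% against 29.6%. The difference between the effects of the edits was tested by an exact permutation within batches (400 splits), and 0 of 54 class and cluster shares (0%) had p under 0.05. The smallest p was 0.06, for monocyte cluster 6, where the effect was 0.39 percentage points for m.11944 60% and 7.21 for m.12436 60%. For clusters 2 and 8 the effects differed by 5.31 and -4.40 percentage points (exact permutation p = 0.255 and 0.225, each 0.856 after adjustment), so a difference between the edits was not shown there.

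The last question was whether cells of the same class differed between the groups in the values given for each cell. In the 10 classes with at least 20 cells in each tumor, 9 measures gave 90 comparisons, and the groups did not overlap in 6 (6.67%). All 6 were lower in the m.11944 60% tumors. With no difference, groups of 3 against 3 tumors separate fully in a share of about 0.10 of comparisons, and 6.67% was below that. None of the 6 lay outside the range of all 7 wild-type tumors.

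The dissociation percentage did not overlap in 3 of the 10 classes (30%), the most of the 9 measures. In monocytes its median was 3.81%, 4.04% and 4.00% in the m.11944 60% tumors and 4.29%, 4.26% and 4.21% in the wild-type tumors. In cancer cells it was 3.55%, 3.23% and 3.36% against 3.68%, 3.57% and 3.93%. In macrophages it was 3.18%, 3.33% and 3.29% against 3.50%, 3.35% and 3.65%. The groups lay closest in macrophages and in cancer cells, where the nearest tumors of the groups differed by 0.014 and 0.019 percentage points.

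The ribosomal percentage, the share of UMIs from ribosomal genes, did not overlap in 2 of the 10 classes (20%). In monocytes its median was 14.5%, 14.96% and 13.5% against 16.6%, 15.6% and 16.5%, and the difference of means was -1.90 percentage points. In CD4 T cells it was 16.7%, 16.1% and 14.03% against 18.5%, 17.8% and 16.8%. In cancer cells the median was 25.0%, 26.4% and 25.0% against 25.4%, 25.3% and 24.3%, with overlap. limma across the classes called 0 of the 90 at an adjusted p under 0.05 and 4 at an unadjusted p under 0.05, the ribosomal percentage of monocytes (limma adjusted p = 0.319) and the dissociation percentage of monocytes, cancer cells and DC (limma adjusted p = 0.154 each).

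The groups overlapped in depth. The median UMI count did not overlap in 0 of the 10 classes (0%), and nor did the gene count or the mitochondrial percentage (0% each). The means of the median UMI and gene counts were still higher in the m.11944 60% group in each of the 10 classes. In monocytes the UMI means were 3631 and 2337, from 6427, 1997 and 2470 against 2854, 2782 and 1375. There only m.11944 60% tumor 1 lay above every wild-type tumor. The part of depth in the ribosomal and dissociation percentages was not tested. In cancer cells, the class grown from the edited line, the median mitochondrial percentage was 0.706%, 0.913% and 0.935% in the m.11944 60% tumors and 0.893%, 0.889% and 0.724% in the wild-type tumors. The authors removed cells above 5%, and this column is a sum over mitochondrial genes that says nothing of mt-Nd5 alone. The doublet score of cancer cells also did not overlap, with medians of 0.00676, 0.00444 and 0.0103 against 0.0257, 0.0121 and 0.0113.

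Shares of ploidy and of cell cycle phase did not overlap in 2 of 40 comparisons (5%). The share of about 0.10 for no difference does not apply in full here. Tied values cannot separate, as in NK cells, where no cell was called aneuploid in any of the tumors. The phase shares of a class also add up to the whole. Cells called in S phase made up 15.3%, 19.8% and 19.3% of the cancer cells of the m.11944 60% tumors and 21.2%, 21.3% and 23.4% of those of the wild-type tumors. Cells called in G2M phase made up 16.9%, 17.04% and 12.5% of the macrophages against 17.5%, 17.1% and 19.1%. In macrophages the nearest tumors of the groups differed by 0.053 percentage points, and for the cancer cells the difference in the S phase share was -3.84 percentage points, or -2.44 without m.11944 60% tumor 1. The mean S score of the cancer cells overlapped, at -0.0158, 0.0199 and 0.0144 against 0.0232, 0.0247 and 0.0169. The median UMI count of the cancer cells was 23118.5, 8789 and 11418 in the m.11944 60% tumors and 13848.5, 15810 and 6347.5 in the wild-type tumors, so tumor 1 had both the deepest cancer cells and the lowest S phase share. No counts were at hand to bring cells to a common depth, and the part of depth was not tested. Between the edits, the effect on a per-cell value differed at an unadjusted exact permutation p under 0.05 in 3 of 130 values (2.31%), and 0 remained after adjustment.

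The class medians mix clusters that shifted in size, so the same values were taken within clusters, a step added after the class results were seen. Among 25 clusters with at least 20 cells in each tumor and 13 values for each cluster, 18 of 325 comparisons did not overlap (5.54%). This was below the share of about 0.10 for no difference, which does not apply in full to the ploidy and phase shares among them. Of the 18, 10 were ribosomal percentages, which did not overlap in 10 of 25 clusters (40%). Against the same-batch wild type the cancer cells and the myeloid cells differed in direction. The mean was higher in the m.11944 60% group in 8 of 9 cancer cell clusters, with 4 not overlapping, and lower in 9 of 9 monocyte and macrophage clusters, with 5 not overlapping. All clusters came from the same tumors, so these counts of clusters are not independent and do not repeat the result. Against all 7 wild-type tumors this contrast was lost, with the mean higher in 9 of 9 cancer cell clusters and in 7 of 9 monocyte and macrophage clusters, and a median difference of 0.29 percentage points in the latter. The mean of the median UMI counts, against the same-batch wild type, was not lower in the m.11944 60% group in any of the 25 clusters. The part of depth in the values within clusters was not tested.

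Cancer cell cluster 9 had a median ribosomal percentage of 28.6%, 28.9% and 27.8% in the m.11944 60% tumors and 27.0%, 26.0% and 25.4% in the wild-type tumors. Cluster 13 had 29.4%, 29.1% and 28.8% against 28.0%, 27.0% and 27.0%. Clusters 14 and 16, whose cells were mostly in G2M phase, had 26.7%, 26.5% and 26.0% against 25.6%, 25.8% and 24.4%, and 25.8%, 26.1% and 25.4% against 25.1%, 25.0% and 25.1%. Cluster 8, the exception, was 0.71 percentage points lower on average in the m.11944 60% tumors. Of the 4, clusters 9 and 16 also lay above all 7 wild-type tumors of the series.

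Monocyte cluster 0 had a median ribosomal percentage of 14.5%, 15.3% and 14.1% in the m.11944 60% tumors and 17.3%, 17.02% and 17.5% in the wild-type tumors. Cluster 1 had 15.05%, 15.5% and 13.6% against 18.0%, 16.7% and 17.5%, and cluster 6 had 12.99%, 13.1% and 11.9% against 14.5%, 13.9% and 14.2%. Macrophage cluster 3 had 12.6%, 13.1% and 11.6% against 15.03%, 13.5% and 14.1%, and cluster 25 had 14.6%, 14.03% and 12.3% against 14.8%, 14.999% and 14.8%. The remaining cluster, 20, holds all CD4 T cells, whose values are given above. The medians of the groups in monocyte clusters 0 and 1 were farther apart than the spread of the tumors within a group.

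Averaged over its clusters, the ribosomal percentage of the cancer cells was 26.5%, 26.6% and 25.4% in the m.11944 60% tumors and 25.4%, 25.3% and 24.6% in the wild-type tumors. These overlapped, with m.11944 60% tumor 3 at 25.42% and wild-type tumor 1 at 25.45%. The ribosomal percentage of the monocytes and macrophages was 13.6%, 13.5% and 12.1% against 14.8%, 14.4% and 14.9%, without overlap. The gap between cancer cells and myeloid cells of the same tumor was 12.9, 13.1 and 13.3 percentage points against 10.7, 10.9 and 9.77. The gap was 2.66 percentage points wider in the m.11944 60% tumors, with no overlap (exact two-sided permutation p = 0.10, the smallest for 3 against 3). The pattern was chosen for this measurement after it was seen. The wild-type tumors of the second batch had gaps of 11.8 to 13.5 percentage points, so the m.11944 60% tumors lay inside the range of all 7 wild-type tumors, 9.77 to 13.5. Against its own wild type, m.12436 60% had a gap that was 0.49 percentage points narrower, with overlap. Its difference was -1.09 percentage points over the cancer cell clusters, without overlap, and -0.60 over the monocyte and macrophage clusters, with overlap.

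**Figure D5:**
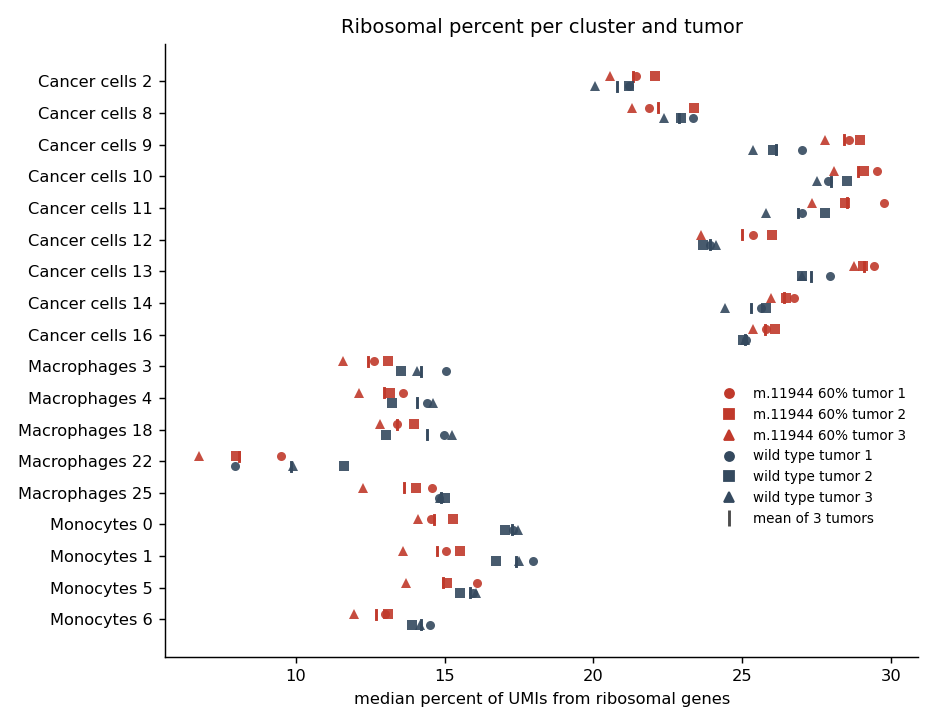
Median percentage of UMIs from ribosomal genes in each cancer cell, macrophage and monocyte cluster with at least 20 cells in each tumor, 1 symbol per tumor (m.11944 60% red, wild type blue) and a bar at the mean of 3. The red points lie to the right of the blue in cancer cell clusters 9, 13, 14 and 16 and to the left in all 3 of monocyte clusters 0, 1 and 6.

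The dissociation percentage did not overlap in 5 of 25 clusters (20%), cancer cell clusters 12, 14 and 16, macrophage cluster 22 and fibroblast cluster 23, and was lower in the m.11944 60% tumors in all 5. In cluster 16 it was 3.24%, 3.26% and 3.36% against 3.42%, 3.50% and 4.05%. Its mean was lower in 8 of 9 cancer cell clusters, so the lower value of the cancer cells as a class was also present within its clusters. In monocytes the mean was lower in 3 of 4 clusters, with 0 not overlapping. In macrophages it was lower in 3 of 5, with 1 not overlapping. The shares of cells in G1, S or G2M phase and the aneuploid share did not overlap in any of the 25 clusters (0% each), including the S phase share that did not overlap in the cancer cells as a class. The last 3 of the 18 values were the doublet score of cancer cell clusters 11 and 14, lower in the m.11944 60% tumors, and the G2M score of cluster 14, higher in them at 0.544, 0.477 and 0.456 against 0.438, 0.451 and 0.431.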

How the data were processed

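Of the 16 tumors, the 3 m.11944 60% tumors and the 3 wild-type tumors of their batch were analyzed from the deposited table of cells. Per the study's methods, the authors aligned reads with Cell Ranger 7.0.1 (GRCm39) and used Seurat 4.2.0, Harmony 0.1.0, clustifyr 1.8.0 for classes and CopyKAT 1.1.0 for ploidy. Their filter kept cells of at least 500 genes, at most 37000 UMIs and at most 5% of UMIs from mitochondria, and 0 cells of the 6 tumors were called doublets. The UMI and gene counts were deposited without normalization. The percent columns (mitochondrial, ribosomal, dissociation) are percentages of the UMIs of a cell, as deposited by the authors, who did not state the genes behind the last 2. The doublet score is a fraction between 0 and 1, and the S, G2M and epithelial scores are module scores, all deposited by the authors.

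Tumors were the replicates, and nothing in the labels says that they came from separate mice, so p-values measure the spread between these tumors. Shares and per-cell medians (means for scores) were compared by the exact two-sided permutation test and by whether the groups overlapped. Cell counts were tested with edgeR 4.0.16 quasi-likelihood, with DESeq2 1.42.0 as an alternative, and per-cell measures also with limma 3.58.1, in R 4.3.3 and Python 3.11.15, and checked on simulated counts. Adjusted p-values are Benjamini-Hochberg values over all classes or clusters of a test. The text names all classes with at least 20 cells in each tumor, the clusters that did not overlap and the per-cell values of classes that did not overlap, and the values within clusters, the T cells class and cluster 36 were added after their values were seen. The members and lists were chosen with earlier results of these data known. Alternatives are given in the closing section. Gene expression was not analysed here.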

Additional observations from a re-analysis of the deposited data

Results flagged for a closer look

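The effect of the edit, set against the wild type of the same batch, differed between m.11944 60% and m.12436 60% at an unadjusted exact permutation p under 0.05 in 3 of 130 per-cell values (2.31%), with an adjusted p of 0.882 in each. The ribosomal percentage of cancer cells moved by 0.50 percentage points in m.11944 60% and by -1.85 in m.12436 60%, a difference of 2.34 (exact permutation p = 0.03). The share of monocytes in G2M phase moved by -2.05 and 8.17 percentage points, a difference of -10.2 (exact permutation p = 0.04). The share of endothelial cells in S phase moved by -11.5 and 11.4 percentage points, a difference of -22.9 (exact permutation p = 0.045), from as few as 12 endothelial cells in a tumor.

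Among the 7 wild-type tumors, wild-type tumor 5 stood apart in monocyte cluster 0, at 11.1% of its cells, and wild-type tumor 4 in macrophage cluster 30, at 1.22%. Both were of the batch of m.12436 60%. The check covered the 7 clusters that did not overlap. About 1 in 20 groups of normally distributed values would show such a gap by chance, and shares need not be normally distributed. For both clusters the separation from the same-batch wild type therefore did not extend to all wild-type tumors.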

How the results depend on the processing

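No class was called under any of 14 alternatives, and the direction turned under some of them in 8 of the 10 classes with at least 20 cells in each tumor, neutrophils included. Against all 7 wild-type tumors the log2 fold was -0.016 for CD4 T cells, 0.26 for cancer cells, -0.093 for DC and -0.042 for NK cells. With TMM scaling it was -0.070 for DC, -0.12 for fibroblasts and -0.21 for monocytes, and with DESeq2 -0.059 for monocytes. With cells of at least 1000 genes it was -0.49 for fibroblasts (a share difference of -0.91 percentage points) and 0.86 for neutrophils. Leaving out each tumor in turn, it ran from -0.070 to 1.27 for CD4 T cells, from -0.33 to 0.18 for cancer cells, from -0.067 to 0.45 for DC, from -0.86 to 1.07 for fibroblasts (share difference from -1.85 to 4.57), from -0.17 to 0.10 for macrophages, from -0.10 to 0.33 for monocytes and from -0.14 to 0.94 for NK cells.

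Classes that did not overlap numbered 1 among cells outside the cancer cell class, 2 as centered log ratios, 2 with cells of at least 1000 genes and 0 to 3 leaving out each tumor, with 3 without m.11944 60% tumor 1. Clusters that did not overlap numbered 4 outside the cancer cell class, 1 against all 7 wild-type tumors and 7 to 14 leaving out each tumor (14 without m.11944 60% tumor 1, 12 without wild-type tumor 2), where 2 tumors in a group separate more easily. edgeR called 1 cluster against all 7 wild-type tumors, 0 to 1 leaving out each tumor, and 3 clusters within their class in the fit of all 16 tumors. Per-cell values that did not overlap numbered 3 with cells of at least 1000 genes, 0 against all 7 wild-type tumors and 7 to 14 leaving out each tumor, and limma called 0. Ploidy and phase shares numbered 0 against all 7 wild-type tumors and 3 to 6 leaving out each tumor. The median difference in ribosomal percentage over monocyte and macrophage clusters turned to 0.29 percentage points against all 7 wild-type tumors and ran from -1.74 to -1.08 leaving out each tumor, settings chosen after seeing the data. The cause of these changes was not tested.

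The replicate numbers of the labels were not taken as pairs. Deviations of same-numbered tumors correlated at -0.206, -0.275 and -0.201, and these few values cannot settle whether the tumors were paired. With the replicate block, edgeR called 0 classes and 0 clusters. All 3 numbered pairs moved 1 way in 1 of 15 classes, 9 of 39 clusters and 10 of 90 per-cell values. With no difference 3 pairs often move 1 way, so these counts are not read as results. The counting interval of a cluster share in a tumor reached at most 0.780 percentage points to a side.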
